A study of Mus musculus with 14 samples.

Results

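Non-haemogenic endothelial (non-HE) cells are endothelial cells sorted from the dissected aorta-gonad-mesonephros region of the embryo without signal from a *Gfi1* reporter, and they are described here across genes at embryonic days E10 and E11. Cells were assigned to the group by the names of the deposited columns and by the sample labels, and they number 73 of the 1121 single cells in the series. At E10 there were 43 cells, 28 on plate p03 and 15 on plate p04, and at E11 there were 30 cells, 11 on plate p01 and 19 on plate p19. The column names of the E10 cells carry the words Early E11, while the sample label gives E10 with 28 to 32 somite pairs, and the label was followed. The columns of E10 HE read E10.5, those of p01 read E11.5, and those of p19 and of E11 HE read Late E11, so the column names of non-HE and HE differ in stage at E10 and, for p01, at E11. The part of such a difference in the results was not tested. The E11 label gives more than 40 somite pairs.

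The series followed the steps by which blood stem cells arise from aortic endothelium, using CEL-Seq, which counts the tagged 3′ ends of transcripts in sorted single cells. The populations include non-HE cells, haemogenic endothelial (HE) cells, cells in endothelial to haematopoietic transition, cluster cells and yolk sac cells. Every E10 cell held 3000 transcripts and every E11 cell 5000, and the E10 non-HE cells showed a median of 1802 genes (range 1356 to 1930) and the E11 cells a median of 2416 (range 2098 to 2545). The comparison group at each stage was HE from the same file, with 98 E10 cells on plates p20 (37) and p21 (61) and 46 E11 cells on the single plate p25.

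Non-HE and HE cells shared their strain (ICR), genotype (Gfi+/tomato/ Gfi1b+/GFP) and tissue, the aorta-gonad-mesonephros region. Embryos were pooled, tissue was digested with collagenase and cells were sorted by flow cytometry into plates of 96 wells. Sorted non-HE cells were Cdh5+, Gfi1-, Gfi1b- and c-kit-, and sorted HE cells differed from them by being Gfi1+. *Cdh5*, *Gfi1*, *Gfi1b* and *Kit* were therefore used to choose the cells, and their levels are no finding. Each population at a stage is 1 sample, so no test between populations was possible, and the plates of a sample show spread without being replicates. Values are transcripts per cell over the named cells. Intervals are exact 95% intervals (Poisson for sums, conditional binomial for ratios, Clopper-Pearson for shares of cells) and cover counting error only. A log2 ratio has 0.1 transcripts per cell added to both levels, a gene was compared where at least 0.5 transcripts per cell were counted in either group, and past 2-fold means a log2 ratio past 1 in that direction. Medians of gene lists are the same with genes at 0 in a group set at their bound, which does not hold for the sex list between stages, where no median is given.

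The endothelium of the dorsal aorta lines the vessel, senses blood flow through factors such as *Klf2* and *Klf4*, and is shaped by Notch signalling toward arterial identity. Part of it, the haemogenic endothelium, gives rise to blood cells, while the rest stays in the vessel wall. Endothelial cells also make matrix: elastin is laid on microfibrils with the help of fibulins, and matrix Gla protein keeps BMP signalling and mineral deposition in check.

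Plate p03 stood apart from the other plates in a list of 12 transcripts that rise in poor-quality CEL-Seq libraries, a list chosen with earlier results of these data known. Summed over the list, p03 held 64.7 transcripts per cell and p04 held 9.6. In 4 cells of p03 the sum lay between 143 and 790, and the next cell below held 39. These 4 cells held 1356 to 1872 genes. In E10 HE, 2 cells of p21 lay above 100, and the mean was 7.22 on p20 and 17.7 on p21. At E11 no non-HE cell was above 100 (means 14.1 on p01 and 15.6 on p19), and 1 HE cell held 274. Without the cells above 100, 12 of 135 log2 ratios of named genes moved further than their spread and 3 reversed. These 15 are ratios of *A130077B15Rik*, *A630089N07Rik*, *Gm10845*, *Gm17821*, *Grk4*, *Kcnq1ot1* and *Nkain3*, all but the last on the list. Of the named genes past 2-fold, 6 of 62 at E10, 5 of 56 at E11 and 3 of 12 between stages were then under it. The part of RNA quality in the results was not tested.

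**Figure D1:**
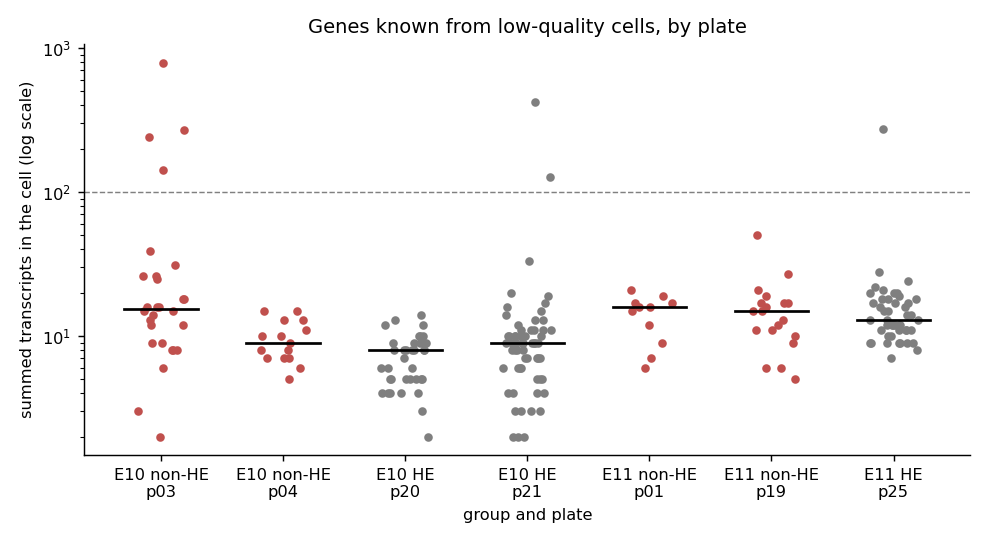
Summed transcripts of the 12 genes known from low-quality libraries in each cell (vertical, log scale) by group and plate (horizontal); each point is a cell, black lines are plate medians and the dashed line is 100 transcripts. In non-HE cells, the 4 cells above the line all came from p03.

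The plates also differed in sex. *Xist*, transcribed from the inactive X chromosome of female cells, had 0 transcripts in the 43 E10 non-HE cells, with an upper limit of 8.22% on cells with a transcript, which is no limit on cells that express the gene, and 24 of these cells held a transcript of a Y-linked gene. At E11, *Xist* was seen in 4 cells and Y-linked transcripts in 3 cells of p01, against 15 and 0 cells of p19. Cells of E10 HE showed *Xist* in 13 and Y-linked transcripts in 35, and cells of E11 HE in 32 and 7. No cell held both. On p03, p04 and p19 transcripts of a single sex were seen, and the part of sex in the results was not tested. Plates p03 and p04 shared 6 column numbers and p01 and p19 shared 4, and in no case were the columns identical.

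The given markers of these cells were *Cdh5* (chr8:104101613-104144504), *Vwf* (chr6:125552948-125686679), *Eln* (chr5:134702595-134747368), *Fbln5* (chr12:101746565-101819119), *Mgp* (chr6:136872435-136875823) and *Bmp4* (chr14:46383525-46390669), with RefSeq positions in build GRCm38.p6 and identifiers that join symbol and chromosome in the deposited tables, as in Eln__chr5. All 6 were detected in the non-HE cells of both stages. An E10 non-HE cell held a median of 4 of the 6 (range 1 to 6), and an E11 cell the same. E10 HE cells held a median of 2, and E11 HE cells a median of 4. At E10, 4 of the 5 markers compared were past 2-fold higher than in HE (*Eln*, *Fbln5*, *Mgp*, *Vwf*; median log2 ratio 3.76), beside 4.78% of all genes compared, and at E11, 2 of 6 were (*Mgp*, *Bmp4*; median -0.08), beside 4.04%. *Eln*, *Fbln5* and *Mgp* at E10 and *Bmp4* at E11 were under 0.5 transcripts per cell in HE, so they were compared only through non-HE.

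*Eln* encodes elastin, the stretchable protein of the arterial wall. Its level was 2.43 transcripts per cell on p03 and 7.60 on p04 at E10, against 0.0811 on p20 and 0.131 on p21 of HE. Both non-HE plates were above both HE plates, with 23 of 43 cells (53.5%, 37.7 to 68.8) against 11 of 98 holding a transcript, and the ratio was 37.7 (20.6 to 76.9). At E11 the level was 5.27 on p01 and 5.63 on p19 against 6.09 in HE, where 39 of 46 cells held a transcript, so the stages differed in what HE held, at unequal depth.

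*Fbln5* encodes fibulin-5, which helps to assemble elastic fibres. It was counted at 1.64 on p03 and 2.60 on p04, and at 0 in the 98 E10 HE cells, which makes non-HE at least 64.6-fold higher against a floor of 3 transcripts over that group. It was found in 21 of 43 E10 non-HE cells. At E11, levels were 1.909 on p01 and 2.84 on p19 against 2.54 in HE, which lay between the plates.

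*Mgp* encodes matrix Gla protein. Its E10 levels were 1.36 on p03 and 2.27 on p04, against 3 transcripts in all of HE, a ratio of 54.7 (18 to 271). At E11 it stood at 0.636 on p01 and 3.16 on p19 with HE at 1.00 between them. The E11 ratio of 2.23 (1.51 to 3.32) came from p19: without that plate the log2 ratio was -0.58, and without the cell that held 21 of the 67 transcripts it was 0.62. *Bmp4*, a BMP ligand, was at 0.250 on p03 and 0.60 on p04 against 0.0714 in HE, a ratio of 5.21 (2.03 to 15.0) on 16 and 7 transcripts, under the level needed for comparison. At E11 it was at 0.455 on p01 and 0.526 on p19 against 0.109, a ratio of 4.60 (1.59 to 16.2).

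*Vwf* encodes von Willebrand factor, the clotting protein that endothelium stores. At E10 its level was 7.18 on p03 and 8.13 on p04, against 4.08 on p20 and 3.13 on p21 of HE, a ratio of 2.15 (1.84 to 2.51). At E11 the plates split, with 9.09 on p01 near the HE level of 8.87 and 4.11 on p19 below it. *Cdh5*, the sorting antigen, was counted in all 73 cells, at 8.18 on p03, 5.67 on p04, 7.36 on p01 and 6.47 on p19.

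**Figure D2:**
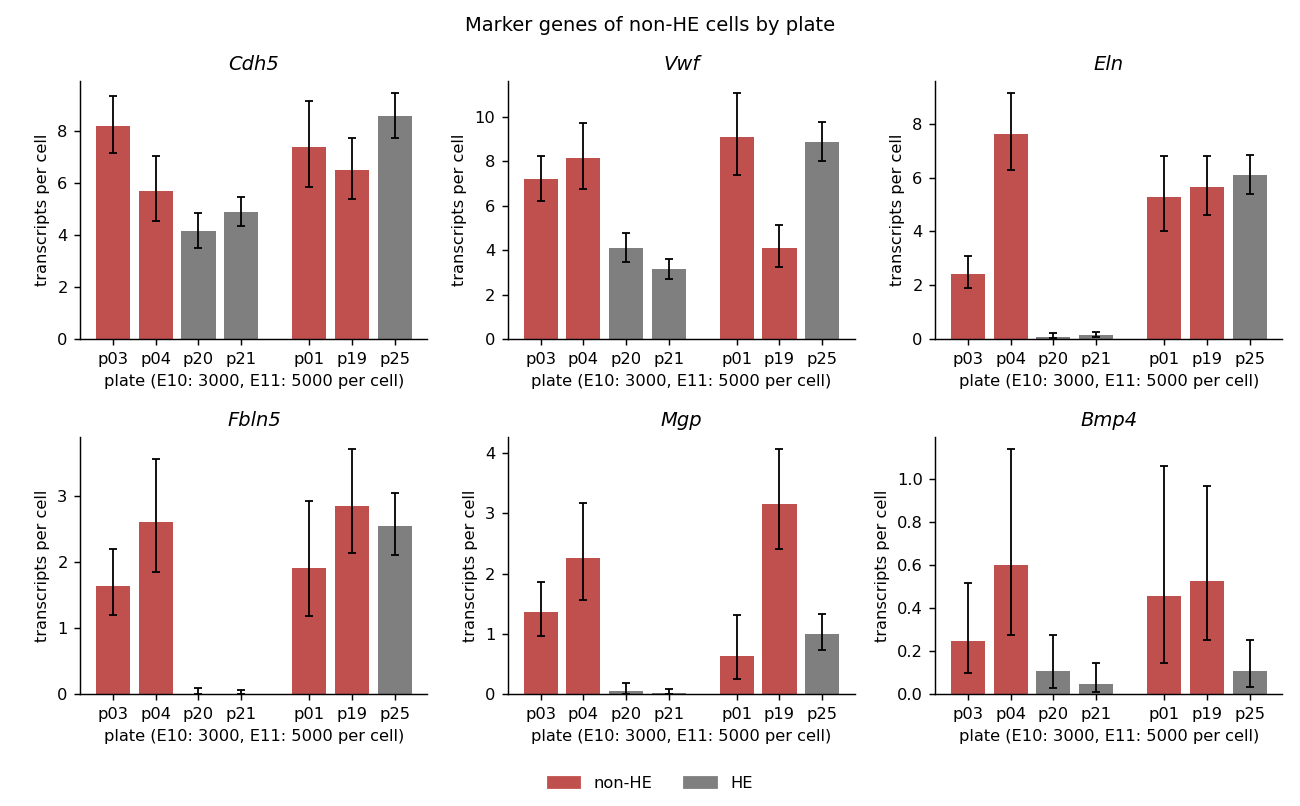
Transcripts per cell (vertical, from 0) of the 6 marker genes on each plate (horizontal), non-HE in red and HE in grey, with E10 plates left and E11 plates right; bars are plate means and lines exact Poisson 95% intervals. *Eln*, *Fbln5* and *Mgp* are near 0 on both E10 HE plates. At E11 the HE plate p25 lies between the non-HE plates for *Fbln5*, *Mgp* and *Vwf*, above both for *Eln* and *Cdh5*, and below both for *Bmp4*.

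Against HE of the same stage, E10 non-HE cells were marked by matrix genes and by genes of the flow and early response. *Eln*, *Fbln5*, *Mgp* and *Fbln2* had the highest log2 ratios, and *Gpr56*, an adhesion receptor of blood progenitors, the lowest. Of 1528 genes compared, 73 were past 2-fold higher (4.78%) and 41 past 2-fold lower (2.68%). With the further demand that both non-HE plates lie beyond both HE plates, 59 were higher (3.86%) and 40 lower (2.62%). The median log2 ratio over all genes was -0.07.

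Of 21 elastic fibre genes, 11 were compared and 5 were past 2-fold higher (*Eln*, *Fbln2*, *Fbln5*, *Ltbp4*, *Mgp*), beside 4.78% of all genes. All 5 were without overlap of plates, and 0 were lower, with a median log2 ratio of 0.96. In E10 HE, *Eln*, *Fbln2*, *Fbln5* and *Mgp* held 0.112, 0.122, 0 and 0.0306 transcripts per cell. They were thus compared only through non-HE and could not be called lower, and the count depends on the filter. *Eln*, *Fbln5* and *Mgp* are also given markers of these cells. *Fbln2*, a fibulin that binds microfibrils, was at 1.79 on p03 and 2.27 on p04 against 0.0270 on p20 and 0.180 on p21, a ratio of 16.0 (8.67 to 32.1). *Ltbp4*, a binding protein of latent TGF-beta, was at 2.79 and 2.60 on the same plates against 0.730 and 0.492, a ratio of 4.68 (3.38 to 6.54). Summed over the list, non-HE held 16.3 transcripts per cell on p03 and 24.5 on p04, against 6.19 on p20 and 5.89 on p21. The *Eln*, *Fbln5* and *Mgp* transcripts were in part in the same cells: 15 cells held *Eln* and *Fbln5*, 8 held *Eln* alone of that pair, 6 held *Fbln5* alone and 11 held all 3. Plates differed here, since on p04 the 9 cells with *Eln* all held *Fbln5*, while on p03 6 of 14 did.

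Of 24 flow and early response genes, 19 were compared and 13 were past 2-fold higher, 12 of them without overlap of plates, beside 4.78% of all genes higher. None was lower, and the median log2 ratio was 1.36. Genes under 0.5 transcripts per cell in HE, such as *Klf4* and *Fos*, were compared only through non-HE, so the count depends on the filter. *Klf4*, a flow-responsive factor, was at 1.32 on p03 and 1.07 on p04 against 0.297 on p20 and 0.148 on p21, a ratio of 6.04 (3.55 to 10.7). *Klf2*, its relative, was at 3.29 and 2.07 on the non-HE plates against 1.43 and 0.656, a ratio of 3.01 (2.28 to 3.99). *Fos*, a subunit of the AP-1 factor, was at 1.32 and 1.60 against 0.297 and 0.246, a ratio of 5.35 (3.33 to 8.82). The others higher were *Zfp36* (log2 ratio 1.89), *Rhob* (1.78), *Btg1* (1.75), *Btg2* (1.51), *Nr4a1* (1.37), *Dusp1* (1.36), *Cyr61* (1.32), *Junb* (1.17), *Nfkbia* (1.17) and *Sgk1* (2.50). Without p03, 3 of the 13 were under 2-fold: the kinase gene *Sgk1*, with 0.857 on p03 and 0.0667 on p04, had a log2 ratio of 0.47, *Junb* of 0.37 and *Nfkbia* of 0.52. Without the cell with most of its transcripts, *Cyr61* was under 2-fold too (0.95). The list sum was 22.7 on p03 and 25.2 on p04, against 11.7 on p20 and 8.33 on p21. A part of the tissue digestion in these levels was not tested.

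Promoters of matrix and early response genes are shown because their transcripts were higher together in E10 non-HE cells. The windows are those of RefSeq in build GRCm38.p6, from 250 bases before to 50 after a listed start, on the strand of the gene and 5′ to 3′. For *Fbln2*, *Nr4a1* and the first window of *Fbln5*, that start lies inside the span of the gene and not at its first base. They lie at chr6:91212514-91212813 (*Fbln2*, plus strand), chr12:101818435-101818734 and chr12:101819070-101819369 (*Fbln5*, minus strand, with 2 starts), chr12:85473640-85473939 (*Fos*, plus), chr4:55532426-55532725 (*Klf4*, minus), chr15:101266596-101266895 (*Nr4a1*, plus) and chr8:72318812-72319111 (*Klf2*, plus). *Eln* and *Mgp* had no entry. Capitals mark matches, on either strand, to CACCC (bound by Krüppel-like factors), GGGCGG (the GC box), TGACTCA (AP-1), TGACGTCA (the cAMP response element), TATAAA (the TATA box) and the CArG box of serum response factor. In *Klf4*, 2 of the 4 matches to GGGCGG share 1 base.
Fbln2: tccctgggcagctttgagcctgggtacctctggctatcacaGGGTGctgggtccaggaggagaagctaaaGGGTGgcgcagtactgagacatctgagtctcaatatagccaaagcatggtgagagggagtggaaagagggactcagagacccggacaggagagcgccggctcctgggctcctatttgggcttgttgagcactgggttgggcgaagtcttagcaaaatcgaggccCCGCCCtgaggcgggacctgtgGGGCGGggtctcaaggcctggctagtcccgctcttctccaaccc
Fbln5 start 1: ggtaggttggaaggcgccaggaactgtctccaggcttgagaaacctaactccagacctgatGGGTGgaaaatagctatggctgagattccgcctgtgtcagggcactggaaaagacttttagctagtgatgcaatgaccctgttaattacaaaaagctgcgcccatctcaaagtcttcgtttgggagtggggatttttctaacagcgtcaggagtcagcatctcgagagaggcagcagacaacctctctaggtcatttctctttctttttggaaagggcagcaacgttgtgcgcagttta
Fbln5 start 2: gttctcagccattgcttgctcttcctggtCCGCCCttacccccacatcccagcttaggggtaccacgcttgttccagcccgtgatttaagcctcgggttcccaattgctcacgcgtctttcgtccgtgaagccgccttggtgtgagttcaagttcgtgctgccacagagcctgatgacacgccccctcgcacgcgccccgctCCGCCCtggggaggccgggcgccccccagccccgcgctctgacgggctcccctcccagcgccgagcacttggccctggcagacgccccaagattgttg
Fos: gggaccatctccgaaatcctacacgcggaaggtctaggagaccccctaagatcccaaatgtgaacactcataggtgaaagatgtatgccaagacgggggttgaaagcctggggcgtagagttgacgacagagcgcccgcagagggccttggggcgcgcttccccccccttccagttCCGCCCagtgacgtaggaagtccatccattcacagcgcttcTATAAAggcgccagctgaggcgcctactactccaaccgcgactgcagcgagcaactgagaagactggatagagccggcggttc
Klf4: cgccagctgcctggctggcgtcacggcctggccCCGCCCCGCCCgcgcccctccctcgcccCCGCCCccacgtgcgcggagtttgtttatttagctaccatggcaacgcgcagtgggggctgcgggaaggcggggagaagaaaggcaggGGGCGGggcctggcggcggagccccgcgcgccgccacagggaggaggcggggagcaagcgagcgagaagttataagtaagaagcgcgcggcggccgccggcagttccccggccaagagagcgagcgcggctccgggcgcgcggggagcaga
Nr4a1: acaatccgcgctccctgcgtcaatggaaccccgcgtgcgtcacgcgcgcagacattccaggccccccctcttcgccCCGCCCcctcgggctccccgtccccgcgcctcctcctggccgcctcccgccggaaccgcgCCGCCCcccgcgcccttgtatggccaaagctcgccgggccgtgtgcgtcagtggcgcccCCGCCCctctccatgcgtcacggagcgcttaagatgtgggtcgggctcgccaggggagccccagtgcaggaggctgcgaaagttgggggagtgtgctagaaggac
Klf2: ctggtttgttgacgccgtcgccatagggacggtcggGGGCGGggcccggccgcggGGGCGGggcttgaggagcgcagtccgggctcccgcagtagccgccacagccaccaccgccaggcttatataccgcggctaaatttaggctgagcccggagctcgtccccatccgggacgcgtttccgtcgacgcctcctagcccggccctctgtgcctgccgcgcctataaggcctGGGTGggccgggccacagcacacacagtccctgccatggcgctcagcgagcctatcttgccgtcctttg

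In these windows, CACCC was found in *Fbln2* (2 matches), in the first window of *Fbln5* (1) and in *Klf2* (1). GGGCGG was found in *Fbln2* (2), in the second window of *Fbln5* (2), and in *Fos* (1), *Klf4* (4), *Nr4a1* (3) and *Klf2* (2). TATAAA was found in *Fos* (1), and the other motifs in none of the 7 windows. Of all 32851 promoter windows, 57.5% held CACCC, 35.7% GGGCGG, 13.6% TATAAA, 5.20% TGACTCA, 1.79% TGACGTCA and 1.63% a CArG box. Of 22 windows of 13 elastic fibre genes, 81.8% held CACCC, 63.6% GGGCGG, 0% TATAAA, 4.55% TGACTCA, 4.55% TGACGTCA and 0% a CArG box. Of 24 windows of 19 flow and early response genes, 41.7% held CACCC, 70.8% GGGCGG, 25% TATAAA, 0% TGACTCA, 8.33% TGACGTCA and 4.17% a CArG box. A match is a description of letters in a window.

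Others among the 15 highest log2 ratios in E10 non-HE were those of *Cav1*, *Bgn*, *Htra1*, *Thbd*, *Nrp2* and *Gkn3*. *Cav1*, the main protein of caveolae, was at 1.89 on p03 and 1.73 on p04 against 0.189 on p20 and 0.311 on p21, a ratio of 6.92 (4.4 to 11.2). *Bgn*, the proteoglycan biglycan, was at 0.786 and 0.733 against 0.135 and 0.0328, a ratio of 10.7 (4.67 to 28.8). *Htra1*, a secreted protease, had a log2 ratio of 2.14, and *Thbd*, the anticoagulant receptor thrombomodulin, one of 1.92. *Nrp2*, a receptor of veins and lymphatics, held 26 transcripts in 7 cells against 2 in HE, a ratio of 29.6 (7.42 to 258), with 11 of the 26 in 1 cell of p04. *Gkn3* held 22 in 10 cells against 1, a ratio of 50.1 (8.10 to 2069).

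Other lists of the vessel wall had fewer members past 2-fold at E10, beside 4.78% of all genes higher. Of 26 basement membrane and matrix genes, 18 were compared and 3 were higher (*Bgn*, *P4ha3*, *Sparcl1*; median log2 ratio 0.85), with 62.5 transcripts per cell over the list against 44.9 in HE. Of 28 BMP and TGF-beta genes, 10 were compared and 2 were higher (*Htra1* and the inhibitor *Smad7*, log2 ratio 1.63; median 0.63). Of 20 endothelial genes, 16 were compared and 2 were higher (*Cd34*, log2 ratio 1.21, and *Vwf*; median 0.40), and the sum was 48.8 on p03 and 46.3 on p04 against 31.9 on p20 and 31.0 on p21. *Erg*, an endothelial factor on that list, had 0 transcripts in non-HE and HE of both stages. Of 20 arterial genes, 15 were compared and 1 was higher (*Fbln2*, also on the elastic fibre list; median 0.35), a share near that of all genes. Of 11 genes of cell cycle arrest and D cyclins, 4 were compared and 2 were higher (*Btg1* and *Btg2*, also on the early response list; median 0.62).

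A part of the growth genes was past 2-fold lower in E10 non-HE than in E10 HE, beside 2.68% of all genes lower and 4.78% higher. Of 25 S phase genes, 15 were compared, 0 were past 2-fold higher and 5 lower (*Dnmt1*, *Lig1*, *Mcm4*, *Mcm5*, *Uhrf1*; median log2 ratio -0.89). Of 25 genes of G2 and mitosis, 9 were compared, 0 were higher and 4 lower (*Ccna2*, *Ccnb2*, *Top2a*, *Ube2c*; median -0.95). Without p03, which leaves 15 cells, *Dnmt1*, *Lig1*, *Mcm4*, *Mcm5* and *Top2a* were under 2-fold, and without p04 *Ccnb2* and *Ube2c* were. *Uhrf1*, which copies DNA methylation at the fork, was at 0.143 on p03 and 0.267 on p04 against 0.595 on p20 and 0.770 on p21. *Ccna2*, encoding cyclin A, was at 0.179 and 0.200 against 0.865 and 0.475. *Uhrf1*, *Ccna2* and *Dnmt1* (0.372 in non-HE) were compared only through HE and could not be called higher. The E10 counts of both cycle lists therefore depend on the filter. Of 20 ribosome biogenesis genes, 9 were compared, with *Npm1*, the nucleolar chaperone, lower at 3.14 and 3.73 against 7.97 and 7.07 (2.21-fold higher in HE, 1.85 to 2.66) and *Odc1*, an enzyme of polyamine synthesis, higher (log2 ratio 1.25), and a median of -0.63. Of 22 hypoxia and glycolysis genes, 10 were compared, 0 were higher and 2 lower (*Slc2a1*, the glucose transporter, -1.27, and *Mif*, -1.13; median -0.52).

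The lowest E10 log2 ratio was that of *Gpr56*, the single gene among the 10 lowest that is on the haematopoietic list. It held 3 transcripts in 43 cells against 94 in 98 HE cells, 13.7-fold higher in HE (4.56 to 67.9). *Neurl3*, a ubiquitin ligase gene, held 2 transcripts against 51, 11.2-fold higher in HE (2.94 to 94.9). *Hapln1*, which links hyaluronan to proteoglycans, held 4 against 76, 8.34-fold higher in HE (3.13 to 31.4). The others among the 10 lowest were *Slc18a2*, a vesicular monoamine transporter (log2 ratio -1.95), *Gsta4*, a glutathione transferase (-1.79), *Prcp* (-1.61), *Jarid2* (-1.60), *Nt5dc2* (-1.57), *Lbr*, the lamin B receptor (-1.50), and *Uhrf1* (-1.49). The E10 shares of genes past 2-fold grew when a plate was left out, which leaves fewer cells: without p03, 9.0% were higher and 6.10% lower. Of the 62 named genes past 2-fold at E10, 15 were under it without p03 and 2 without p04.

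At E11, 1 of 12 elastic fibre genes compared (*Mgp*) and 1 of 19 basement membrane genes (*Col15a1*) were past 2-fold higher in non-HE cells than in HE. Others past 2-fold higher included *Nnat*, genes of venous endothelium and genes of the cell cycle. Of 2551 genes compared, 103 were past 2-fold higher (4.04%) and 88 lower (3.45%). With the demand that both non-HE plates lie beyond p25, 97 were higher (3.8%) and 88 lower (3.45%), which asks less than at E10 because HE had 1 plate. The median log2 ratio was 0.03. Without p19, which leaves 11 cells, 8.33% were higher and 7.70% lower. Of the 56 named genes past 2-fold at E11, 11 were under it without p19 and 6 without p01.

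*Nnat*, an imprinted gene encoding neuronatin, was at 0.818 on p01 and 2.68 on p19 against 0.130 in HE, a ratio of 15.3 (6.65 to 43.4). *Nr2f2* (chr7:70351946-70366746), the factor of venous identity, held 21 transcripts in 9 of 30 cells and 0 in 46 HE cells, at least 10.7-fold higher. *Col15a1*, a basement membrane collagen, held 19 transcripts in 8 cells and 0 in HE, at least 9.71-fold higher. *Sgk1* was at 1.18 on p01 and 2.21 on p19 against 0.217, a ratio of 8.43 (4.26 to 18.6), and *Nrp2* held 19 transcripts against 1, a ratio of 29.1 (4.63 to 1210). *Apold1*, an endothelial early response gene, held 24 against 1, a ratio of 36.8 (6.00 to 1513), and *1810011O10Rik* (*Tcim* in RefSeq) 16 against 1, a ratio of 24.5 (3.81 to 1029).

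Several of the highest E11 ratios rested on a few cells. Of the 23 transcripts of *Cldn11*, a tight junction gene (at least 11.8-fold higher), 16 lay in 1 cell, and of the 18 of *Tmem255a* (at least 9.20-fold) 12 did. Of the 24 of *Apold1*, 11 lay in 1 cell of p01, without which the log2 ratio was 2.17, and of the 19 of *Col15a1* 9 lay in 1 cell of p19 (2.15 without it). For *Igfbp3*, which binds growth factors, 23 of 39 transcripts lay in 1 cell and the log2 ratio went from 2.24 to 1.14 without it. For *Lyve1*, the hyaluronan receptor of lymphatics, 12 of 16 did and the log2 ratio went from 2.14 to 0.73. The rest of the 15 highest were *Fxyd6* (2.10), *Gap43* (2.06), *Lbp* (2.04) and *Fam174b* (1.94). Without p19, *Gap43* was at 0.97 and *Tmem255a* at 0.93.

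A gene under 0.5 transcripts per cell in 1 group was compared only through its level in the other. Counts and medians of short lists therefore depend on this filter. Of 12 venous and lymphatic genes, 6 were compared at E11, 4 were past 2-fold higher (*Dab2*, *Lyve1*, *Nr2f2*, *Nrp2*) and 0 lower, with a median log2 ratio of 1.87. At E10 the count had been 1 of 4 (*Nrp2*, median 0.96), beside 4.78% of all genes higher. In E11 HE the 4 genes held 0.130, 0.0435, 0 and 0.0217 transcripts per cell, so they were compared only through non-HE. The E11 counts of this and the next lists stand beside 4.04% of all genes higher and 3.45% lower. Of the elastic fibre genes, 12 were compared with 1 higher (*Mgp*) and 1 lower (*Ltbp1*, log2 ratio -1.35), a median of -0.18. Of the flow and early response genes, 20 were compared with 4 higher (*Cyr61*, *Fos*, *Sgk1*, *Zfp36*) and a median of 0.22. *Zfp36*, which shortens the life of mRNAs, had a log2 ratio of 1.06 that went to -0.04 without p19. Among BMP and TGF-beta genes, 2 of 14 were higher (*Bmp4* and *Skil*, a repressor of SMAD factors, ratio 3.83, 2.10 to 7.33; median 0.10), and among basement membrane genes 1 of 19 was (*Col15a1*; median -0.01).

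The endothelial and arterial lists differed little from HE at E11, beside 4.04% of all genes past 2-fold higher and 3.45% lower. Of the endothelial genes 18 were compared and 0 passed 2-fold (median -0.19), and of the arterial genes 17 were compared and 1 was lower, the Notch ligand *Dll4* (log2 ratio -1.20; median -0.18). Of the genes of cell cycle arrest and D cyclins, 0 of 5 passed 2-fold (median 0.45). Of the ribosome biogenesis genes, 0 of 10 did (median 0.37). Of the hypoxia and glycolysis genes, 1 of 12 was lower, *Vegfa*, the vascular growth factor, at 0.364 on p01 and 0.158 on p19 against 1.04 (4.5-fold higher in HE, 2.01 to 11.7; list median -0.01). Of 11 tip and capillary genes, 2 were compared at each stage and 0 passed 2-fold (median -0.45 at E10 and -0.22 at E11).

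The lowest gene at E11 was again *Gpr56*, with 3 transcripts in 30 cells against 60 in 46 HE cells, 13-fold higher in HE (4.25 to 65.0). *Procr*, the endothelial protein C receptor, was at 1.18 on p01 and 0.947 on p19 against 3.52, 3.41-fold higher in HE (2.31 to 5.18). Also among the 10 lowest were *Klhl13* (log2 ratio -2.01), *Abhd4* (-2.00), *Neurl3* (-1.95), *Golgb1*, a Golgi protein (-1.91), *Lrrc57* (-1.85), *Vegfa* (-1.78) and *Ucp2*, a mitochondrial carrier (-1.74).

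The cell cycle genes stood on opposite sides of HE at the 2 stages. At E11, 9 S phase genes were compared, with 4 past 2-fold higher (*Mcm5*, *Mcm7*, *Rrm2*, *Tyms*), 0 lower and a median log2 ratio of 0.78. Of 12 genes of G2 and mitosis 9 were higher (*Birc5*, *Ccna2*, *Ccnb2*, *Cenpa*, *Mki67*, *Plk1*, *Top2a*, *Tpx2*, *Ube2c*), 0 lower, with a median of 1.55. These counts stand beside 4.04% of all genes higher, and like the venous ones they depend on the filter. The S phase sum at E10 was 5.79 on p03 and 10 on p04 against 15.7 on p20 and 13.9 on p21 of HE, and at E11 it was 11.2 on p01 and 10.6 on p19 against 6.13. The sum of G2 and mitosis genes was 5.57 and 6.47 at E10 against 12.2 and 9.66, and 12.9 and 12.8 at E11 against 4.78. At each stage both non-HE plates lay on the same side of HE. The non-HE sums, as a part of 3000 and of 5000 transcripts, cannot be set side by side between stages without the change of depth. At 3000 transcripts, 5 genes of each cycle list were compared between E11 and E10 non-HE, and 0 passed 2-fold (medians -0.30 and 0.44). The HE sums were lower at E11 than at E10, although the E11 cells held more transcripts.

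Counted by cell, 13 of 43 E10 non-HE cells (30.2%, 17.2 to 46.1) held over 10 transcripts of either cycle list, against 59 of 98 HE cells (60.2%, 49.8 to 70.0). At E11, 16 of 30 non-HE cells (53.3%, 34.3 to 71.7) did, against 9 of 46 HE cells (interval 9.36% to 33.9%). *Top2a*, the topoisomerase that untangles replicated DNA, was at 0.286 on p03 and 0.533 on p04 against 1.05 on p20 and 0.869 on p21, and at 0.545 on p01 and 0.947 on p19 against 0.217 at E11. Of 1483 genes compared at both stages, 5 were past 2-fold lower at E10 and higher at E11, namely *Ccna2*, *Ccnb2*, *Mcm5*, *Top2a* and *Ube2c*, all of the cycle lists. Each of the 5 was under 2-fold at a stage, with its direction kept, when 1 plate or 1 cell was left out. At E11, *Ccna2* was at 0.66 without p01, *Mcm5* at 0.81 without p19, and *Top2a* at 0.79 without the cell that held 11 of its 24 transcripts.

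**Figure D3:**
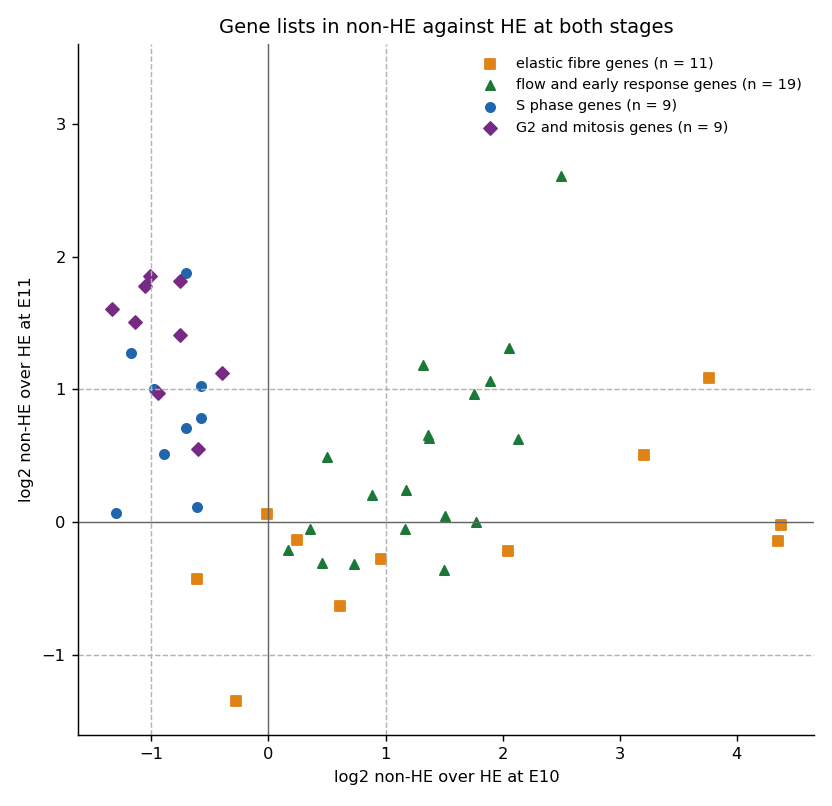
Log2 ratio of non-HE over HE at E10 (horizontal) and at E11 (vertical) for members of 4 lists that were compared at both stages; each point is a gene and dashed lines mark 2-fold. Cycle genes lie low at E10 and high at E11, elastic fibre genes such as *Eln* and *Fbln5* lie far right and near 0 at E11.

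**Figure D4:**
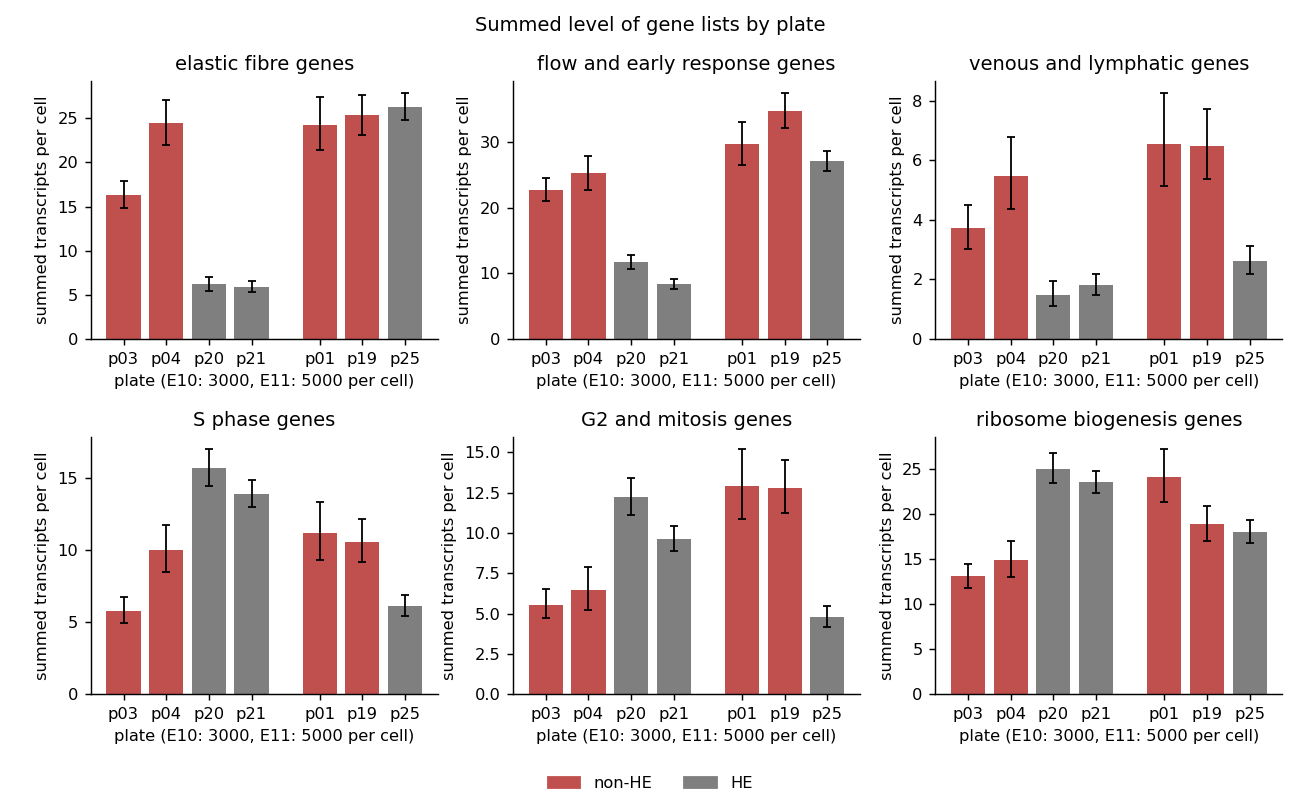
Summed transcripts per cell (vertical, from 0) of 6 gene lists on each plate (horizontal), non-HE in red and HE in grey, E10 left and E11 right; bars are plate means and lines exact Poisson 95% intervals. S phase and G2 and mitosis sums lie below HE on p03 and p04 and above HE on p01 and p19.

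Few genes were past 2-fold in the same direction against HE at both stages. Of the 1483 genes compared at both, 5 were higher at both without overlap of plates (0.337%), *Cyr61*, *Fos*, *Nnat*, *Nrp2* and *Sgk1*, and 6 were lower (0.405%), *Acta2*, *Gpr56*, *Gsta4*, *Lama3*, *Neurl3* and *Slc18a2*. Of the genes past 2-fold higher at E10, 62 were compared at E11 and 7 were higher there too, beside 4.04% of all genes at E11. Of those lower at E10, 37 were compared and 6 were lower, beside 3.45% of all genes. *Cyr61*, a matrix protein of the early response, had log2 ratios of 1.32 at E10 and 1.19 at E11, and *Fos* of 2.06 and 1.31, and without p19 the E11 values were 0.21 and 0.54. With each non-HE plate left out in turn, *Nnat*, *Nrp2*, *Gpr56*, *Gsta4* and *Neurl3* stayed past 2-fold at both stages, and the other 6 did not. *Acta2*, smooth muscle actin, was at 0.214 on p03 and 0.60 on p04 against 0.865 on p20 and 0.869 on p21, and at 0.364 on p01 and 0.105 on p19 against 0.696 at E11. *Lama3*, a laminin chain, had log2 ratios of -1.18 and -1.15, and *Gsta4* of -1.79 and -1.32.

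Some non-HE cells carried *Nr2f2*, which no HE cell did. At E10, 8 of 43 non-HE cells (18.6%, 8.39 to 33.4) held a transcript, 6 on p03 and 2 on p04, and at E11 9 of 30 (30.0%, 14.7 to 49.4), 4 on p01 and 5 on p19. The count was 0 of 98 in E10 HE (upper limit 3.69%) and 0 of 46 in E11 HE (upper limit 7.71%), which limits cells with a transcript and not cells that express the gene. Of the 8 E10 cells, 2 were among the 4 cells of p03 rich in low-quality transcripts (143 and 242), with arterial sums of 4 and 13, and the part of RNA quality in the split was not tested. The cells were split by *Nr2f2* after the values were seen, so the values that follow are a description with no test.

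*Gja5*, the arterial connexin 40, was at 0.375 transcripts per cell in the E10 cells with *Nr2f2* and 4.89 in those without. At E11 it was at 2.11 with *Nr2f2* and 7.10 without. Only 1 of 8 such cells held both transcripts at E10, and 5 of 9 did at E11. *Nrp2* went the other way, at 2.38 with and 0.200 without at E10, where 11 of the 19 transcripts behind the first value lay in 1 cell, and at 1.89 and 0.0952 at E11. *Stab1*, a scavenger receptor of sinusoids and veins, was at 3.50 with and 0.771 without at E10, with 22 of the 28 transcripts behind the first value in 1 cell. *Nrp1*, a receptor higher in arteries, was at 1.00 with and 5.43 without at E10, and at 2.56 and 9.14 at E11. Not all members of the arterial and venous lists were split in this way. On the venous list, *Ephb4* was at 1.125 with and 0.943 without at E10, and at 1.56 and 1.29 at E11. On the arterial list, *Unc5b* was at 1.75 with and 1.31 without at E10, and at 1.33 and 1.71 at E11.

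Of the markers, *Eln*, *Fbln5* and *Mgp* were split at E11, where *Eln* was at 1.44 with *Nr2f2* (4 of 9 cells) and 7.24 without (17 of 21). At E10 *Eln* was found in 4 of 8 cells with and 19 of 35 without. *Bmp4* at E11 was at 0.889 with and 0.333 without. At E11, *Fbln5* was found in 0 of 9 cells with *Nr2f2* and 15 of 21 without, and *Mgp* in 0 of 9 and 12 of 21. At E10 both were found in 2 of 8 cells with *Nr2f2*, against 19 and 16 of 35. *Prox1*, the lymphatic factor, was found in 3 of 9 cells with *Nr2f2* and 0 of 21 without at E11, and in 0 of the E10 cells, and *Maf* in 4 of 9 and 0 of 21. *Sgk1* at E11 was at 4.78 with and 0.571 without, and all *Cldn11* transcripts of E11 lay in cells with *Nr2f2*. *Vwf* was at 1.63 with and 8.86 without at E10. Without the cells that held *Nr2f2*, the E11 log2 ratio of *Nrp2* was 0.68, of *Sgk1* 1.08 and of *Fam174b* -0.72.

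**Figure D5:**
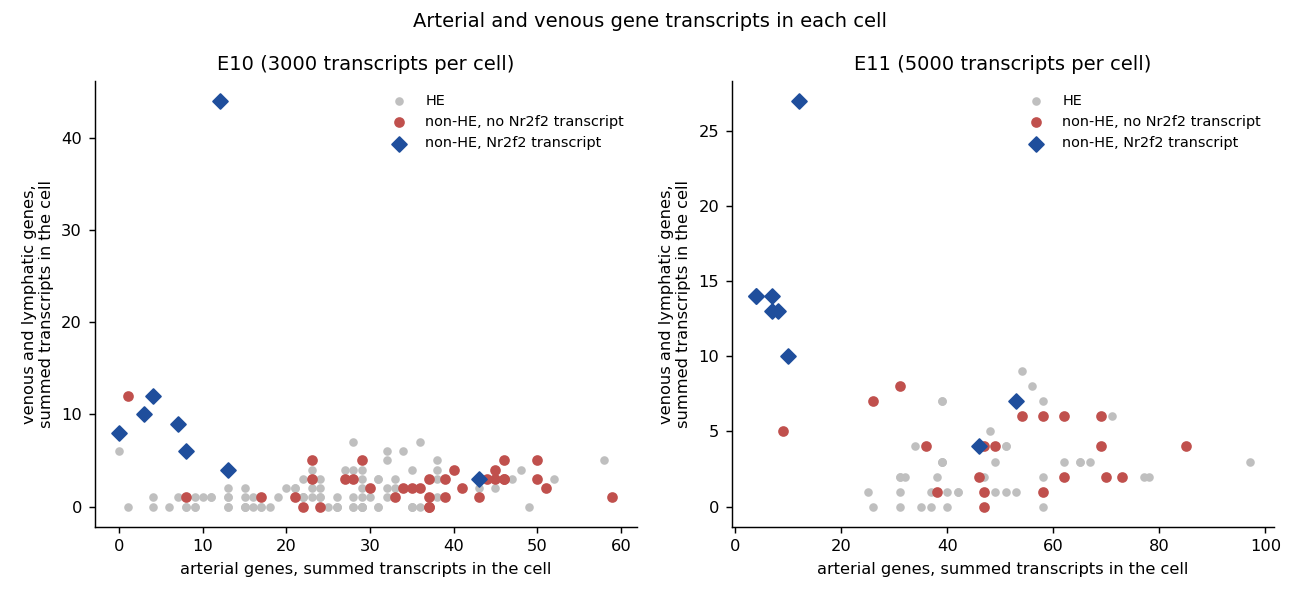
Summed transcripts of the arterial list (horizontal) and of the venous and lymphatic list, which holds *Nr2f2* itself (vertical), in each cell at E10 (left) and E11 (right); diamonds are non-HE cells with an *Nr2f2* transcript, red points other non-HE cells and grey points HE cells. Venous sums exceed arterial sums in 6 non-HE cells at E10 and 6 at E11, and in 1 and 0 HE cells.

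Summed over the venous and lymphatic list, E10 non-HE held 3.71 transcripts per cell on p03 and 5.47 on p04, of which 1 cell of p04 held 44, against 1.49 on p20 and 1.80 on p21. At E11 the sum was 6.55 on p01 and 6.47 on p19 against 2.61. Fewer than 15 arterial transcripts, a cutoff that is the same at unequal depth, were held by 9 of 43 E10 non-HE cells and 8 of 30 E11 non-HE cells. In HE, 19 of 98 and 0 of 46 cells did. Arterial sums were 31.5 on p03, 28.8 on p04, 37.3 on p01 and 43.3 on p19.

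Imprinted genes were among the most abundant transcripts of these cells. *H19* and *Igf2*, a noncoding RNA and a growth factor of the same imprinted locus, held ranks 1 and 2 at both stages, with *H19* at 47.9 on p03 and 55.2 on p04 against 33.0 on p20 and 23.8 on p21. At E11 *H19* was at 76.1 on p01 and 70.3 on p19 against 63.5. *Igf2* was at 50.3 in E10 non-HE against 28.3 in HE, a ratio of 1.78 (1.68 to 1.88), and at 52.9 against 51.6 at E11, a ratio of 1.03 (0.962 to 1.09). Of 22 imprinted genes, 12 were compared at E10 with 2 past 2-fold higher (*Nnat* and *Kcnq1ot1*, the second on the low-quality list too), beside 4.78% of all genes (median log2 ratio 0.48). At E11, 14 were compared with 2 higher (*Dlk1*, *Nnat*) and 2 lower (*Igf2r*, the receptor that clears IGF2, at -1.07, and *Kcnq1ot1*), with a median of 0.24. Of all genes at E11, 4.04% were higher and 3.45% lower. Of the 28 *Dlk1* transcripts at E11, 27 lay in 1 cell of p19.

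Between stages, E11 non-HE cells were thinned to 3000 transcripts and set against E10 non-HE cells, where stage and plate cannot be told apart. More genes were lower than higher at E11: of 1417 compared, 21 were past 2-fold higher (1.48%) and 79 lower (5.58%), and without overlap of plates 18 (1.27%) and 67 (4.728%). The median log2 ratio was -0.16. The highest gene was *Xist* (28 transcripts against 0, at least 13.4-fold higher), and 5 of the 6 lowest are on the low-quality list, and the part of sex and RNA quality of the plates in this comparison was not tested. Without p19, 6.61% were higher and 10.7% lower.

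Among the markers, *Vwf* was at 4.82 on p01 and 2.68 on p19 at this depth, against 7.18 on p03 and 8.13 on p04, 2.17-fold higher at E10 (1.73 to 2.73). The level of *Cdh5* was 4.0 and 4.05 against 8.18 and 5.67. Over all cells of a stage, *Eln* was at 3.40 against 4.23 (log2 ratio -0.31), *Fbln5* at 1.80 against 1.98 (-0.13) and *Mgp* at 1.5 against 1.67 (-0.15), but plates of a stage were split. *Eln* was at 3.36 on p01 and 3.42 on p19, between 2.43 on p03 and 7.60 on p04. *Mgp* was at 0.273 on p01 and 2.21 on p19 against 1.36 and 2.27, and *Fbln5* at 1.64 and 1.89 against 1.64 and 2.60. *Vwf* was the single gene past 2-fold among 5 markers (list median -0.31) and among 16 endothelial genes (-0.37). Past 2-fold lower at E11 were also the Notch ligand *Dll4* (-1.12), the microfibril protein *Emilin1* (-1.08) and the laminin chain *Lama4* (-1.03), each the single one of its list, of 15 arterial (median -0.28), 10 elastic fibre (-0.25) and 18 basement membrane genes compared (-0.44). *Ccnd3*, a D cyclin, was higher (1.02), as 1 of 5 genes compared of the list of cell cycle arrest and D cyclins (median 0.03). Of 13 imprinted genes, *Dlk1* was higher and *Kcnq1ot1* lower (median -0.23). Lists with 0 members past 2-fold, each with its median, were the venous (4 compared, -0.40), tip and capillary (1, -0.15), BMP and TGF-beta (10, -0.11), flow and early response (19, -0.36), S phase (5, -0.30), G2 and mitosis (5, 0.44), hypoxia (9, -0.43), ribosome biogenesis (7, -0.02) and mesenchyme lists (1, 0.16).

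After *Xist*, the highest stage ratios were those of *Dlk1* (log2 ratio 2.28), the X-linked translation factor *Eif2s3x*, the mitochondrial import protein *Tomm34* (1.55), *Ifrd1* (1.32) and *Gm6251* (1.29). *Eif2s3x* was at 0.545 on p01 and 0.579 on p19 against 0.143 on p03 and 0.0667 on p04, a ratio of 4.87 (1.73 to 16.9). The *Dlk1* ratio was -0.30 without p19. The 6 lowest were *Grk4* (-4.13), *Gm17821* (-3.83), *A630089N07Rik* (-3.79), *Nkain3* (-3.68), *Kcnq1ot1* (-3.65) and *A130077B15Rik* (-3.64). *Nkain3* held 51 transcripts at E10, on p03 at 1.71 and on p04 at 0.200, and 0 at E11, at least 11.9-fold lower. Of the 12 low-quality transcripts, 6 of 11 compared were past 2-fold lower at E11, with a median of -2.75. Without p03 the log2 ratio of *Gm17821* was 0.77 and that of *Kcnq1ot1* 0.30.

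The low-quality list also moved in the comparisons with HE. At E10, 7 of its 10 compared members were past 2-fold higher in non-HE, 1 of them (*Erdr1*) without overlap of plates, with a median log2 ratio of 1.60, and at E11 3 of 9 were lower, with a median of -0.25. *Gm17821* was at 20.8 on p03 and 0.467 on p04, with 301 of its 588 transcripts in 1 cell, against 0.892 on p20 and 3.85 on p21. *Kcnq1ot1* was at 13.1 and 0.467 against 0.946 and 3.25. Without p03 these ratios turned, to -2.32 for *Gm17821* and -2.13 for *Kcnq1ot1*, as did those of *A130077B15Rik*, *A630089N07Rik*, *Gm10845* and *Grk4*. *Arhgef15*, a gene expressed in endothelium, was the remaining gene past 2-fold higher at E10 (1.02) and lower at E11 (-1.13), beside *A630089N07Rik*, *Gm17821* and *Kcnq1ot1*.

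Plates of the same stage differed from each other, by shares that depended on the number of transcripts summed. Thinned to the same sum, 348 of 1695 genes were past 2-fold between p03 and p04 (20.5%), and 562 of 2767 between p01 and p19 (20.3%). The HE plates p20 and p21 gave 353 of 1734 (20.4%). Non-HE against HE plates gave 27.2%, 23.5%, 24.4% and 25.2% at E10 and 23.2% and 23.6% at E11. Sums over 11 to 15 cells hold few transcripts of most genes. With all cells of each plate, which leaves unequal sums, the shares were 15.3% between p03 and p04, 18.4% between p01 and p19 and 5.75% between p20 and p21. Non-HE against HE plates then gave 16.9% (p03 and p20), 12.1% (p03 and p21), 18.7% (p04 and p20) and 17.6% (p04 and p21) at E10, and 16.0% (p01) and 11.3% (p19) at E11. The part of counting error in these shares was not tested.

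At E10, the genes highest on p03 over p04 were *Gm17821*, *Kcnq1ot1*, *Grk4*, *A630089N07Rik*, *F830016B08Rik* and *A130077B15Rik*, with log2 ratios from 3.17 to 5.19, and 5 of these 6 are on the low-quality list. Highest on p04 were *Gemin7*, *Megf6*, *Herc2*, *Lsr*, *Skap2* and *Sav1*. *Megf6* held 2 transcripts on p03 and 18 on p04, in 10 of 15 cells. *Eln* was also higher on p04, by a log2 ratio of -1.79 for p03 over p04, and *Sgk1* higher on p03 (2.72). At E11, highest on p01 were *Mrpl3*, *Ctps2*, *Naa40*, *Snap23*, *C330027C09Rik* and *Dnajc3*, and highest on p19 *Dlk1*, *Wwtr1*, *Irf2bp1*, *Phf23*, *Ptpn14* and *Smtn*. *Wwtr1*, the transcriptional partner TAZ of the Hippo pathway, held 19 transcripts in 11 of 19 cells on p19 and 0 in 11 cells on p01.

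Markers of other cell types that a sort from this region could hold gave few transcripts in non-HE cells, though 4 of 43 non-HE and 13 of 98 HE cells at E10 held 3 or more macrophage, red cell, mesenchyme or epithelial markers. Without those cells, 4.88% of genes were past 2-fold higher and 2.97% lower at E10, and 10 of 62 named genes past 2-fold were under it. Of 12 macrophage genes, 0 were detected in non-HE at either stage, *Csf1r* and *Lyz2* included. Of 11 red cell genes, 6 were detected at E10 with a sum of 0.214 on p03 and 0.0667 on p04, led by *Blvrb*, and 4 at E11 with 0.545 on p01 and 0.158 on p19, led by *Hbb-y*, while *Slc4a1* was at 0. Of 20 mesenchyme and muscle genes, 12 were detected at E10 (1.68 on p03, 2.07 on p04, HE 1.87), led by *Sox11*, and 10 at E11 (1.73 on p01, 2.95 on p19, HE 2.37), led by *Col3a1*, with *Postn*, *Lum* and *Cnn1* at 0. Of these, 1 was compared at E10 and 3 at E11, and *Acta2* was past 2-fold lower at both (list medians -1.11 and 0.64). Of 16 epithelial, neural and germ cell genes, 5 were detected at E10 (0.250 on p03, 0.667 on p04) and 3 at E11 (0.273 on p01, 0.211 on p19), led by *Krt18*, with *Epcam*, *Wt1*, *Sox10* and *Dazl* at 0. No macrophage, red cell or epithelial gene reached the level for comparison.

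Of 20 haematopoietic genes, 14 were detected in E10 non-HE, at 0.964 on p03 and 1.00 on p04 against 3.54 on p20 and 3.92 on p21, and 7 in E11 non-HE, at 1.73 on p01 and 0.737 on p19 against 3.57. The most abundant was *Laptm5* at both stages, and *Gata1*, *Klf1*, *Mpo* and *Sfpi1* were at 0. At E10 and at E11, 2 genes of that list were compared and 1 was lower (*Gpr56*; medians -1.64 and -1.71). Of 9 mitochondrially encoded genes, 0 are in the tables. Of 5 genes that mark sex, 1 was compared with HE at each stage and did not pass 2-fold (0.61 and 0.10), and between stages *Xist* was higher and *Ddx3y*, which is Y-linked, lower (-1.44).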

How the data were processed

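Each deposited value is an estimated count that the authors derived from molecular barcodes: reads were aligned to mm10 with BWA 0.6.2-r126 (the submitters' processing notes), cells were filtered and down-sampled with RaceID2, and 0.1 was added to each value as deposited. The Methods give 5000 transcripts per cell, while the E10 cells hold 3000; the annotation is not given in the sources used here. The 0.1 was taken off, which left whole numbers. The tables hold 19322 (E10) and 19424 (E11) genes, and 480 columns (73 and 407) of other populations were not used. For the stage comparison E11 cells were thinned to 3000 at random. The population to describe and 23 gene lists were chosen with earlier results of these data known.

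Genes were named by a rule: the 6 markers; against HE, the 15 highest and 10 lowest log2 ratios past 2-fold without overlap of plates, genes past 2-fold in the same direction at both stages, and list members past 2-fold; between plates and stages, the 6 highest and 6 lowest. It named 121 genes. List members at 0, most abundant or past 2-fold between stages, and *Nrp1*, *Gja5*, *Stab1*, *Prox1*, *Maf*, *Ephb4*, *Unc5b*, *H19*, *Igf2* and *Arhgef15* were chosen after their values were seen. The steps were tested on simulated data. Python 3.11.15, numpy 2.4.6, pandas 2.3.3, scipy 1.17.1 and matplotlib 3.10.9 were used, with RefSeq GRCm38.p6 for positions and sequences.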

Additional observations from a re-analysis of the deposited data

Results flagged for a closer look

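In 6 genes the log2 ratio of non-HE over HE was past 2-fold in opposite directions at the 2 stages, with all plates of non-HE on the same side of HE within a stage. *Arhgef15* stood at 1.02 at E10 and -1.13 at E11. It was not among the genes named by the rule, so the alternatives for named genes do not cover it. The other genes are all of the cell cycle and went the other way: *Ccna2* stood at -1.34 at E10 and 1.60 at E11, *Ccnb2* at -1.01 and 1.85, *Mcm5* at -1.18 and 1.27, *Top2a* at -1.14 and 1.5, and *Ube2c* at -1.05 and 1.78. Each cycle gene was under 2-fold at a stage, with its direction kept, when 1 plate or 1 cell was left out: at E11 *Ccna2* at 0.66 without p01, *Mcm5* at 0.81 without p19 and *Top2a* at 0.79 without 1 cell, and at E10 *Ccnb2* at -0.80 and *Ube2c* at -0.99 without p04. Between E11 and E10 non-HE at 3000 transcripts, 0 of 5 S phase and 0 of 5 G2 and mitosis genes compared passed 2-fold. The difference between stages was not tested, because each population at a stage is 1 sample. Stage and plate cannot be told apart here, and the part of sex was not tested.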

How the results depend on the processing

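Shares of genes past 2-fold had 67 alternatives, of which 38 lay within 1.5 times the reported share, 29 moved further and 0 reversed. A pseudocount of 0.5 transcripts per cell gave 1.77% higher and 0.327% lower at E10 against HE, 0.666% and 0.235% at E11, and 0.0706% and 0.776% between stages; it draws ratios of low counts toward 1 by construction. A filter of 1 transcript per cell gave 1.58% lower at E10, 2.33% higher at E11, and 0.963% higher and 3.28% lower between stages, and a filter of 0.2 gave 5.60% lower at E11 and 2.73% higher between stages, with other genes compared. Leaving out a plate, which leaves fewer cells, gave 5.01% to 9.0% higher and 3.90% to 6.10% lower at E10, 6.2% to 8.33% and 5.11% to 7.70% at E11, and 2.47% to 6.61% and 6.79% to 10.74% between stages. The E11 HE plate could not be left out. Alternatives without the cells rich in low-quality transcripts, without cells holding *Nr2f2* and without the cell with most transcripts of a gene were chosen after seeing the data. Without cells holding *Nr2f2*, 4.479% were lower at E10 and 3.39% higher between stages; the cause was not tested. No paired analysis was possible because no label ties a non-HE plate to an HE plate. No run was made without a filter.

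Log2 ratios of named genes had 1556 alternatives, of which 1401 moved by less than their spread, 138 moved further and 17 reversed. The 1401 include all 135 ratios under a filter of 0.2 transcripts per cell and all 135 under a filter of 1. A filter chooses genes and does not enter a ratio, so these outcomes could not change and say nothing about stability. With each plate left out in turn, E10 ratios against HE ran from -0.83 to 3.25 for *A130077B15Rik*, -1.27 to 3.66 for *A630089N07Rik*, -1.24 to 2.82 for *Gm10845*, -2.32 to 3.80 for *Gm17821*, -1.65 to 4.01 for *Grk4* and -2.13 to 3.07 for *Kcnq1ot1*, each lowest without p03. Without cells over 100 low-quality transcripts, *Kcnq1ot1* was at -0.21 at E10, and *A630089N07Rik* at 0.26 and *Gm17821* at 0.52 at E11, where the same HE cell was also the one with most transcripts of both. At E11, *Mgp* ran from -0.58 (without p19) to 1.566 and *Zfp36* from -0.038 to 1.45, and *Fam174b* was at -0.72 without cells holding *Nr2f2*. Between stages, *Dlk1* ran from -0.30 (without p19) to 2.85, *Gm17821* from -4.43 to 0.77 and *Kcnq1ot1* from -4.23 to 0.30, the last 2 highest without p03. The cause was not tested. Without E10 cells holding 3 or more markers of another cell type, 57 of 63 ratios stayed within their counting interval, 6 moved further and 0 reversed. Without the cell with most transcripts, 11 of 62 ratios past 2-fold at E10, 13 of 56 at E11 and 1 of 12 between stages were under 2-fold. With a pseudocount of 0.5 transcripts per cell, 33 of 62, 37 of 56 and 5 of 12 were, the largest loss of any alternative against HE.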
